A study of Mus musculus with 6 samples.

Results

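A set of 9 marker genes of leukocytes and macrophages were followed in sorted neonatal prostate cells. They are Ptprc, Aif1, Cd68, Emr1, Csf1r, Lyz2, Cd14, Cd74 and Cd3e, and they were taken as every probe that carries 1 of these names among the 36163 names on the array, which gave 12 probes. The cells came from prostates of 6-day-old male FVB/N Tg 11.5kb-GFP mice, in which the s-SHIP promoter, from within the gene of the phosphatase SHIP1 (Inpp5d), drives GFP, and all samples carried this transgene and had no treatment. The transgene marks basal epithelial cells and, more brightly, smooth muscle cells of blood vessels. Cells that stained for Ter119 (red cells), CD31 (endothelium) or CD45 (leukocytes) were gated out, cells with both Sca-1 and CD49f were kept (called LSC), and the LSC cells were parted by GFP into LSC GFP+ and LSC GFP-, with 3 independent samples of each. RNA was amplified before it was measured on 1-colour arrays, 1 array per sample. How many mice went into a sample is not given in the sources used here.

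Leukocytes arise from blood-forming stem cells and carry CD45, the surface phosphatase encoded by Ptprc, through nearly their whole life. Macrophages settle in most organs, the prostate among them, live on signals through the receptor Csf1r, take up dead cells and debris, and show antigen on MHC class II molecules. T cells read such antigen with a receptor whose signalling chains include Cd3e. Since the sort removed cells with CD45 on their surface, the comparison asks whether RNA of these cells was left in either population and whether the populations differed in it. In such bulk samples, fewer cells of a type and less RNA per cell cannot be told apart.

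The probes are strands of 60 bases, and what they hold bears on how a dim signal can be read. Those of 4 members are shown because Ptprc is the gene of the gated protein, Emr1 and Cd68 are the macrophage genes that the values below turn on, and Lyz2 is the member that was not detected. Capitals mark the triplet CTG, read only on the strand printed, which recurs in 1 Csf1r probe described below. Positions are those of the array design, on mouse build mm9.
Ptprc, chr1:139961083-139961142, minus strand: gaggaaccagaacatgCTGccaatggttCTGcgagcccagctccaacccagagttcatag
Emr1, chr17:57620350-57620409, plus strand: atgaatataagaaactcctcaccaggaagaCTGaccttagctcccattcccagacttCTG
Cd68, chr11:69478979-69479038, minus strand: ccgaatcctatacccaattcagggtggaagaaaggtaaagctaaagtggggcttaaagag
Lyz2, chr10:116719175-116719234, minus strand: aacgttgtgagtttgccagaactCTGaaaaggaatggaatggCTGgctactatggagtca
The Ptprc, Emr1 and Lyz2 probes hold 2 copies of the triplet each and the Cd68 probe holds 0. The Cd68 probe shared at least 16 bases in a row, on either strand, with 2 probes named for a region of chromosome 6. The Lyz2 probe shared such a stretch with 1 probe, of Angpt2. The transcript for which the Cd68 probe was designed was not found in the RefSeq table used here, and the symbol is that of the array. RefSeq lists Emr1 under the symbol Adgre1.

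No difference between the populations was found for any of the 9 members. Of these, 8 were well above background on every array through at least 1 probe, and the remaining gene, Lyz2, on no array. Of all 55681 probes, 60.8% were well above background on all 6 arrays, a share of probes and not of genes. All values below are log2 signals relative to the 75th percentile of their own array, so that 0 is the level below which 75% of the probe spots of that array lay, and "well above background" is the mark the scanner software sets. Levels of different probes are not compared, since each probe binds with its own strength. By limma, 0 of the 8 tested members passed an unadjusted p of 0.05 in either direction and 0 passed a Benjamini-Hochberg adjusted p of 0.05, and the methods' t-test also called 0 at the unadjusted threshold. Among all 37005 tested probes, 7.90% passed the unadjusted threshold, 3.38% being higher and 4.53% lower in LSC GFP+ cells, and 0.00270% (1 probe) passed the adjusted one. That split depended on the scaling, with 1250 probes higher and 1675 lower as reported and 1471 higher and 1299 lower when arrays were scaled to their median. The 3 and 3 arrays did not overlap in 12.3% of all tested probes and in 0 of the members.

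Ptprc, the gene of the protein used to gate leukocytes out, had the smallest range over the 6 arrays of all 12 member probes. It read -1.39, -1.51 and -1.54 in LSC GFP+ replicates 1, 2 and 3 and -1.42, -1.42 and -1.44 in LSC GFP- replicates 1, 2 and 3, well above background on all 6 arrays. The populations overlapped, and all 6 values lay within 0.15 of each other. The means were -1.48 ± 0.08 (SD, n = 3) and -1.43 ± 0.01 (SD, n = 3), and the difference, LSC GFP+ minus LSC GFP-, was -0.05 on the log2 scale with a 95% interval from -0.46 to 0.35 (adjusted p = 0.996 by limma). That interval runs from 0.725-fold to 1.28-fold, so larger differences of this probe lay outside it.

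**Figure D1:**
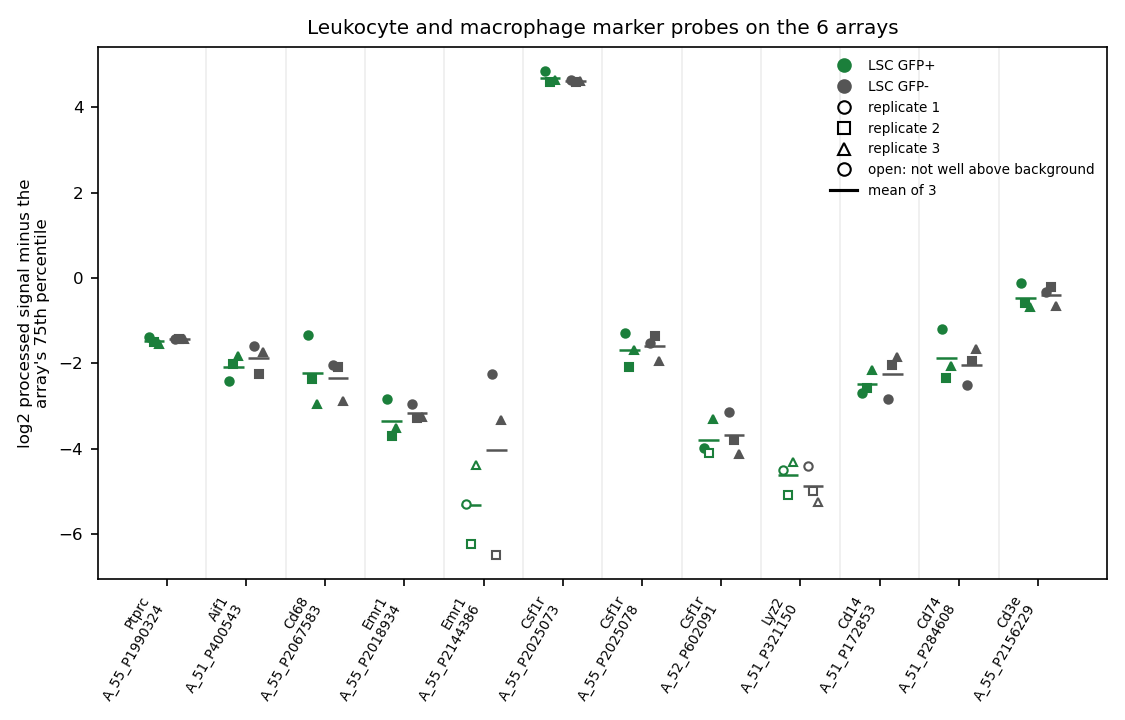
Log2 processed signal minus the 75th percentile of the array for the 12 probes of the 9 members, with LSC GFP+ in green and LSC GFP- in grey, symbols for the replicate number and short lines for the mean of 3. Filled symbols are well above background and open symbols are not: all 6 Lyz2 values are open, and Ptprc lies between -1.54 and -1.39 on all 6 arrays.

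The macrophage genes followed, from the general markers to the growth factor receptor. Aif1, which encodes the calcium-binding protein IBA1 of macrophages and microglia, read -2.41, -2.01 and -1.84 in LSC GFP+ and -1.60, -2.26 and -1.74 in LSC GFP- replicates 1 to 3. Its lowest value was LSC GFP+ replicate 1 and its highest LSC GFP- replicate 1, while the values of the other replicates interleaved. The difference was -0.22, with a 95% interval from -0.81 to 0.37.

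Cd68, a glycoprotein of the lysosomes of macrophages, read -1.34, -2.37 and -2.94 in LSC GFP+ and -2.03, -2.09 and -2.89 in LSC GFP- replicates 1 to 3. Replicate 3 was the lowest in both populations, and the means of the 3 replicate numbers spanned 1.23, against a mean absolute difference of 0.34 between samples of the same number. The difference between the populations was 0.12, with a 95% interval from -0.86 to 1.099, the widest of the members. Its sign turned when LSC GFP+ replicate 1 was left out, to -0.32, and when LSC GFP- replicate 3 was, to -0.16.

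Emr1 encodes the surface receptor by which mouse macrophages are commonly stained, and its probes did not give the same picture. The probe printed above read -2.85, -3.69 and -3.53 in LSC GFP+ and -2.96, -3.28 and -3.26 in LSC GFP- replicates 1 to 3, well above background on all 6 arrays. Replicate 1 was the highest in both populations, and the difference was -0.19 with a 95% interval from -0.80 to 0.42. The other probe, A_55_P2144386, read -5.31, -6.24 and -4.39 in LSC GFP+ and -2.26, -6.49 and -3.33 in LSC GFP- replicates 1 to 3, and only LSC GFP- replicates 1 and 3 were well above background. It was not tested, since no population had it on all 3 arrays. LSC GFP- replicate 2 held the lowest value of all 6 and the populations overlapped, and no fold is given for this probe.

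Csf1r, the receptor of macrophages for the growth factor CSF1, had 3 probes, and none of them passed the test. The probe A_55_P2025078 read -1.30, -2.09 and -1.70 in LSC GFP+ and -1.51, -1.35 and -1.95 in LSC GFP- replicates 1 to 3. The probe A_52_P602091 read -3.99, -4.10 and -3.30 in LSC GFP+ and -3.13, -3.80 and -4.13 in LSC GFP-, was not well above background on LSC GFP+ replicate 2, and so was tested only through its LSC GFP- arrays. The probe A_55_P2025073 read 4.84, 4.59 and 4.63 in LSC GFP+ and 4.64, 4.60 and 4.62 in LSC GFP-. Its values lay within 0.256 of each other on arrays where the other probes of the gene spanned 0.79 and 0.993. The differences were -0.09, -0.11 and 0.07, with 95% intervals from -0.71 to 0.53, from -0.86 to 0.64 and from -0.36 to 0.49.

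Lyz2, the lysozyme that macrophages and neutrophils make in quantity, was well above background on none of the 6 arrays. Its values were -4.49, -5.08 and -4.31 in LSC GFP+ and -4.40, -4.99 and -5.24 in LSC GFP- replicates 1 to 3, and no fold is given for it. The lowest signal marked as well above background lay between -4.66 and -4.14 on these arrays. Over the whole array, 5683 of 36163 names (15.7%) had no probe well above background on any array.

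Cd14, the co-receptor by which monocytes sense bacterial lipopolysaccharide, read -2.70, -2.58 and -2.17 in LSC GFP+ and -2.85, -2.03 and -1.85 in LSC GFP- replicates 1 to 3. Replicate 1 was the lowest and replicate 3 the highest in each population. The difference was -0.24, with a 95% interval from -0.94 to 0.46.

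Cd74, the invariant chain that guides MHC class II molecules in antigen-presenting cells, read -1.19, -2.34 and -2.07 in LSC GFP+ and -2.51, -1.95 and -1.65 in LSC GFP- replicates 1 to 3. Its sign turned with the replicate number: within replicate number 1 the LSC GFP+ sample was 1.32 above the LSC GFP- sample, while within numbers 2 and 3 it was 0.39 and 0.42 below. The difference was 0.17 with a 95% interval from -0.64 to 0.98, and was -0.17 without LSC GFP+ replicate 1 and -0.07 without LSC GFP- replicate 1.

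Cd3e, the only T cell gene among the members, read -0.12, -0.59 and -0.69 in LSC GFP+ and -0.34, -0.22 and -0.65 in LSC GFP- replicates 1 to 3. The populations overlapped over nearly their whole ranges, and replicate 3 was the lowest in both. The difference was -0.07, with a 95% interval from -0.61 to 0.47.

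**Figure D2:**
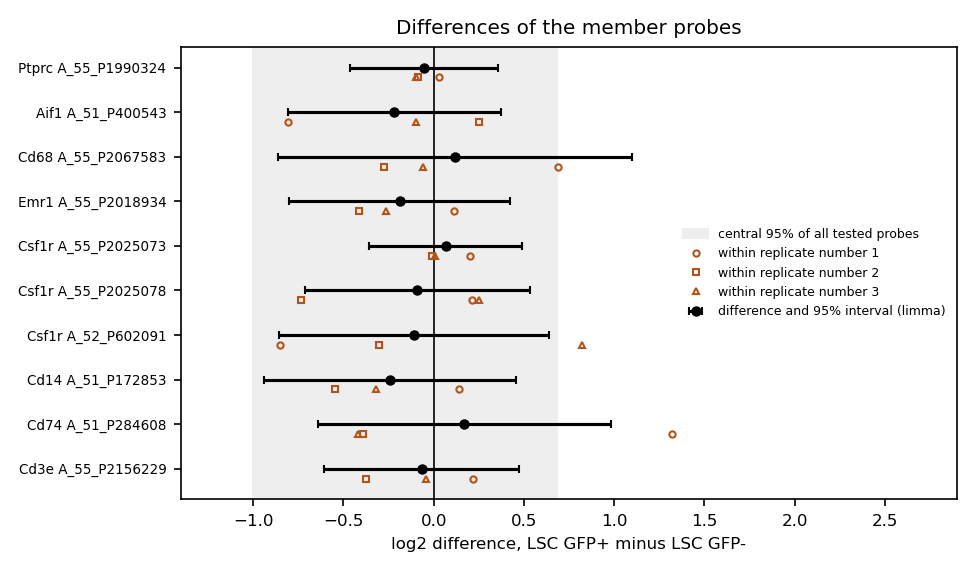
Log2 difference of LSC GFP+ minus LSC GFP- for the 10 tested member probes, as black points with the 95% interval from limma and as open symbols for each replicate number, over a grey band that holds the central 95% of all tested probes. All 10 intervals span 0, and the band reaches from -1.002 to 0.683.

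Taking the brightest probe of each gene, 3 of the 8 tested members had a positive and 5 a negative difference, and the median was -0.06, beside -0.00 over all tested probes. In 0 of the 8 did the difference have the same sign within all 3 replicate numbers, while 38.5% of all tested probes had it. With the replicate number as a block in limma, as a paired fit, no member passed either, with unadjusted p from 0.239 (Cd14) to 0.756 (Csf1r, probe A_52_P602091) over the 10 tested probes. The 95% interval reached a median of 0.58 to either side over all tested probes.

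Differences between the replicate numbers were set beside those within a number. In 6 of the 8 the means of the replicate numbers spanned more than the mean absolute difference within a number, near the 71.3% of all tested probes. A range of means tends to exceed a mean of absolute differences even without a replicate effect, so no such effect is read from this count. LSC GFP+ replicate 1 had the highest value of the 6 arrays for 6 of the 8 members (Ptprc, Cd68, Emr1, Csf1r, Cd74 and Cd3e), against 24.3% of all tested probes. With each gene centred on its mean over the arrays, the members averaged 0.24 on that array. They averaged -0.18 on LSC GFP+ replicate 2 and -0.14 on replicate 3, and between 0.00 and 0.05 in the LSC GFP- samples. The same average over all tested probes was 0.06 on LSC GFP+ replicate 1 and lay between -0.08 and 0.04 on the other arrays. That array also had the most probes well above background, 42123 of 55681, against 36651 to 41409 on the others, and the part of this in the members' values was not tested. Without it the median difference of the members was -0.15 and still 0 members passed.

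Over the 6 arrays, 17 of the 28 pairs of members had a positive and 11 a negative Pearson correlation. Ptprc, Cd68, Emr1, Csf1r and Cd3e were positively correlated in all 10 of their pairs, from 0.54 to 0.93 (Cd68 with Cd3e). Aif1 was negatively correlated with 6 of the 7 other members, down to -0.64 with Cd3e. These are descriptions over 6 arrays that share a slide, and their number leaves room for high values: among the 33845 probes well above background on all arrays, 3068 correlated above 0.9 with Cd3e, 1742 with Cd68, 955 with Emr1, 900 with Ptprc, 443 with the brightest Csf1r probe, 271 with Cd14, 155 with Cd74 and 81 with Aif1. Among the 3 names nearest to each member were Slc5a11 and Paip1 for Ptprc (r = 0.996 and 0.995), Sh3gl2, Mn1 and Thsd7a for Aif1 (0.98 to 0.99), Grin3b for Cd68 (0.999), Wdr62 for Emr1 (0.99) and Lrp3 for Csf1r (0.99). For Cd14 they were BC003266, Zfp781 and Gk5 (0.99), for Cd74 Fgf17, 4833427F10Rik and Senp7 (0.98 to 0.99), and for Cd3e Lmod3 (0.998). None of these is in a leukocyte list used here, and the nearest probes not named carried a genome region or a transcript cluster in place of a gene name.

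A wider set of 87 leukocyte genes was read beside the members, of which 8 of 9 were well above background on all 6 arrays. Of the 86 with a probe, 40 were well above background on all 6 arrays through some probe, beside the 60.8% given above for single probes. Those 40 included Ptprcap and Itgb2 of leukocytes at large and C1qa, C1qb, Mpeg1, Fcer1g and Lgmn of the macrophage and monocyte list. These were named after their values were seen. Another 24 (27.9%) had no probe well above background on any array, beside the 15.7% given above for all names. The shares were not compared by a test. Those 24 included Laptm5, Cd53 and Lcp2 of leukocytes at large, and Itgax and Cd86 of antigen-presenting cells. From the macrophage and monocyte list they included Lyz1, Cd163, Mrc1, C1qc, Ms4a7, Pf4 and Clec7a. Of lymphocytes they included Cd3d, Cd3g, Cd2 and Cd8a of T cells, Ms4a1 of B cells, and Klrb1c and Klrd1 of natural killer cells, and of granulocytes and mast cells S100a8, Fcer1a and Ms4a2. Cd3e was thus read on every array while Cd3d and Cd3g, which form the same receptor complex, were read on none. Cd247, a further chain of that complex, passed the filter and was tested, and is named after its values were seen. Of the T cell list, 8 of 14 genes were well above background on all 6 arrays through some probe and 4 on none. Between 45 and 54 of the 86 genes were well above background on any 1 array, 46 to 54 in LSC GFP+ and 45 to 52 in LSC GFP-.

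In that wider set 2 of 44 tested genes passed an unadjusted p of 0.05, both higher in LSC GFP+ cells, and 0 passed the adjusted p. The background above was 3.38% for higher and 4.53% for lower. Mertk, a receptor with which macrophages, and also some epithelial cells, engulf dying cells, read -1.32, -1.28 and -1.57 in LSC GFP+ and -2.32, -2.03 and -2.29 in LSC GFP- replicates 1 to 3, without overlap. It was higher by 0.82 ± 0.20 (SE), or 1.77-fold, with an unadjusted p of 0.00315 and an adjusted p of 0.219 by limma. Vav1, a guanine nucleotide exchange factor of blood cells, read -1.12, -2.05 and -2.60 against -3.63, -2.45 and -2.72, which overlapped, and was higher by 1.01 ± 0.44 (SE) with an unadjusted p of 0.0498 and an adjusted p of 0.632. The Vav1 call was lost, among other settings, with the replicate block (unadjusted p = 0.0969) and without any of LSC GFP+ replicates 1 or 2 or LSC GFP- replicates 1 or 3, while Mertk passed in every alternative tried. The other Vav1 probe, A_51_P154780, was higher by 0.61 and did not pass (unadjusted p = 0.0789 by limma). The median difference over the 44 genes was -0.11, with 15 positive and 29 negative.

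The count of 2 depended on single libraries. It was 5 without LSC GFP+ replicate 1 (Mertk higher, and C1qb, Fcer1g, H2-DMa and Gzma lower), 4 without LSC GFP- replicate 1, 4 without LSC GFP+ replicate 3 and 1 without LSC GFP- replicate 3. Only Mertk was among the calls each time. Cd52, a small surface glycoprotein of lymphocytes that is also known from the epithelium of the male tract, read 0.75, 2.32 and 3.01 in LSC GFP+ and 2.53, 3.30 and 3.66 in LSC GFP- replicates 1 to 3. It was lower in LSC GFP+ within each replicate number, and its difference of -1.14 passed the unadjusted threshold only with the replicate block (adjusted p = 0.146 by limma) or without LSC GFP- replicate 1 or LSC GFP+ replicate 3. Without LSC GFP+ replicate 1 it was -0.50. Cd52 was chosen for mention after its values were seen.

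**Figure D3:**
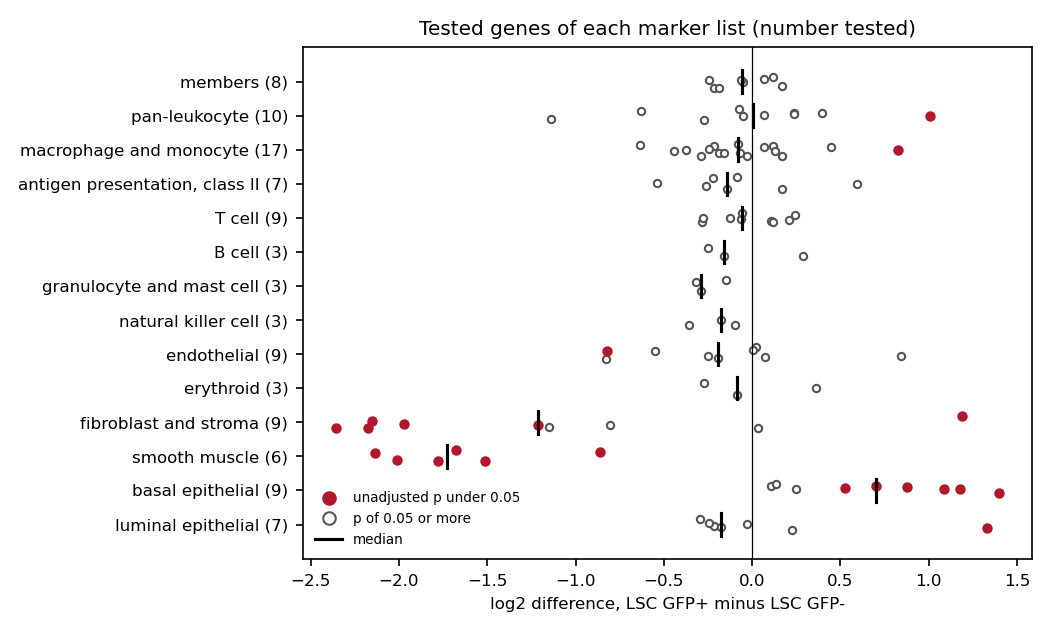
Log2 difference, LSC GFP+ minus LSC GFP-, of the tested genes of each marker list, 1 point a gene, filled red where the unadjusted p was under 0.05, with the list median as a black bar and the members drawn again in the lists they belong to. In the leukocyte lists Vav1 and Mertk are filled, while 6 of 6 smooth muscle genes are filled and lower.

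By list, the 10 tested genes of leukocytes at large had a median difference of 0.01, the 17 of macrophages and monocytes -0.08, the 7 of antigen presentation -0.14 and the 9 of T cells -0.06, the members among them included. The B cell, granulocyte and mast cell, and natural killer lists had 3 tested genes each, with medians of -0.16, -0.29 and -0.18. H2-Eb1, the beta chain of an MHC class II molecule, came nearest to the threshold among the antigen presentation genes, with a difference of 0.60 and an adjusted p of 0.635 by limma. It was well above background on 3 LSC GFP+ but only 2 LSC GFP- arrays and so was tested only through the population in which it was higher. It passed the unadjusted threshold with the replicate block (adjusted p = 0.176) among other settings. With normexp background correction its difference was 0.05. It too was picked after its values were seen.

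Genes of cells other than leukocytes passed the threshold more widely. Of the smooth muscle list, 6 of 7 genes were tested and all 6 passed at the unadjusted p and were lower in LSC GFP+ cells, led by Acta2, the smooth muscle actin, at -2.13. The summed level of the list was 6.23 to 10.0 in LSC GFP+ and 19.6 to 37.8 in LSC GFP-, in multiples of the 75th percentile of each array. Of the 10 genes of fibroblasts and stroma, 9 were tested, of which Col1a1, Col1a2, Col3a1, Lum and Pdgfra fell and Dcn rose, with summed levels of 19.1 to 25.3 and 21.2 to 60.1. Pdgfra was well above background on 2 of the 3 LSC GFP+ arrays and so was tested only through the LSC GFP- arrays, where it was higher. Of the 9 basal epithelial genes, Krt5, Krt14, Krt15, Krt17, Lamb3 and Col17a1 were higher in LSC GFP+ cells, and the sums were 230 to 248 and 172 to 183. Without the brightest Trp63 probe, which shared at least 16 bases in a row with 9 probes of other names, the sums were 116 to 146 and 75.8 to 89.6. None of these calls passed the adjusted p, and their part in the leukocyte values was not tested.

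Endothelial and red cells were gated out as well, through CD31 and Ter119. The 13 endothelial genes had summed levels of 6.83 to 8.03 in LSC GFP+ and 7.24 to 8.49 in LSC GFP-. Most of that sum came from 1 Kdr probe, and without it the sums were 1.41 to 1.81 and 1.59 to 2.76. All 13 were well above background on LSC GFP- replicate 3 against 7 to 10 on the other arrays. On that array Pecam1, the gene of CD31, read -1.07, against -3.61 to -2.86 on the others. Cdh5, Tie1 and Erg were well above background there and on no other array, and Vwf alone passed at the unadjusted p, at -0.82. The members averaged 0.03 on that array, and 52 of the wider leukocyte genes were well above background there. Of the 6 erythroid genes, 3 were tested and 0 passed, with sums of 0.833 to 4.65 and 1.46 to 3.37. The sort genes Ly6a (Sca-1) and Itga6 (CD49f) were well above background on all 6 arrays, although the Itga6 probe shared such a stretch with 19 probes of other names. Inpp5d, which gave the transgene its promoter and encodes a phosphatase of blood cells, was well above background on none, with values from -6.94 to -6.43. Its probe lies at position 4812 of the transcript it was designed for, and the authors describe s-SHIP as a shorter isoform without the N-terminal region. Whether the probe reads the s-SHIP transcript was not tested.

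**Figure D4:**
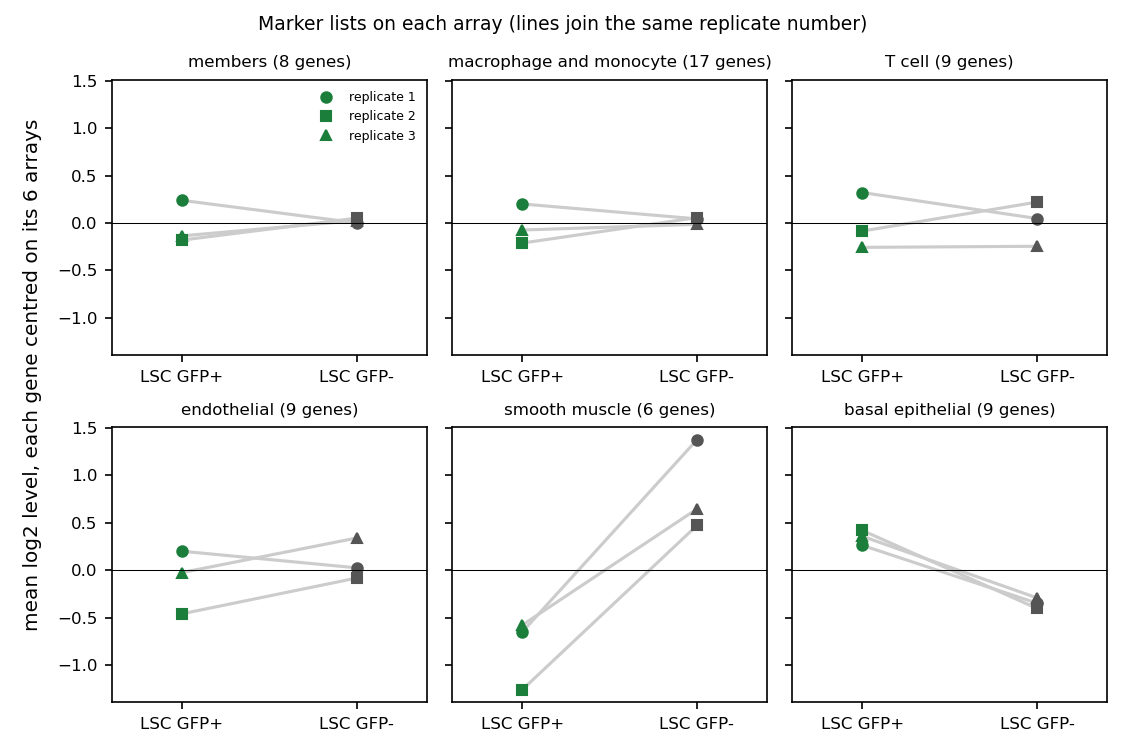
Mean log2 level of the tested genes of 6 lists on each array, each gene centred on its mean over the 6 arrays, with LSC GFP+ on the left, LSC GFP- on the right and lines that join samples of the same replicate number. The members lie between -0.18 and 0.24 and their lines cross, while all 3 lines rise for smooth muscle and fall for basal epithelial genes.

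Some of the leukocyte probes hold a recurring triplet or a tandem repeat. The Csf1r probe A_55_P2025073 holds 6 copies of the triplet CTG, not as 1 unbroken run, and 0.242% of all 55681 probes hold 6 or more. Of those 135 probes, 94.1% were well above background on all 6 arrays, against 56.2% of probes with 0 copies, 62.6% with 2 and 60.8% of all. Base composition went the same way: of probes with 50 to under 60% G and C, to which those of Ptprc, Cd14 and Cd74 belong at 55%, 82.1% were well above background on all arrays, and of those with 40 to under 50%, to which Cd68, Aif1, Cd3e, Lyz2 and the Csf1r probes belong, 60.6%. The untested Emr1 probe, at 35%, belongs to a class in which 50.3% were. These are shares of all probes and say nothing of what bound to a member's probe.

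Tandem repeats stood in probes of the wider lists. A stretch of 30 bases is shown for Itgam, the gene of the macrophage integrin CD11b, with the repeat in capitals.
Itgam, from the probe at chr7:135261755-135261814, plus strand: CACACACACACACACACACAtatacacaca
The Itgam probe shared at least 16 bases in a row, on either strand, with 117 probes of other names, and a probe of Ciita, the regulator of MHC class II genes, with 28. Probes of Cd22 and Csf3r, a B cell and a granulocyte receptor, each shared them with 10. Of all probes, 2.64% shared such a stretch with 5 or more probes of other names, and 82.7% of these were well above background on all 6 arrays. All 3 probes of Itgam were well above background on all 6 arrays. None of the 3 passed the test, with differences of -0.03, -0.15 and 0.01. With these probes and the Csf1r probe left out, which was decided on after the values were seen, the members' count was again 0 of 8, with a median difference of -0.08, and the wider count was 2 of 42.

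**Figure D5:**
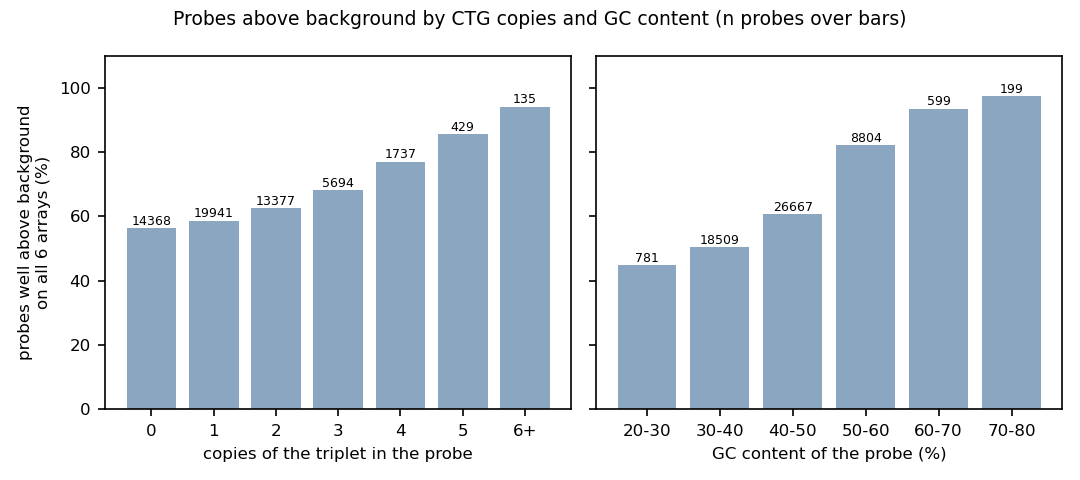
Percent of all array probes that were well above background on all 6 arrays, by the number of CTG triplets in the probe (left) and by its G and C content (right), with the number of probes over each bar. The share goes from 56.2% with 0 triplets to 94.1% with 6 or more, the class of 1 Csf1r probe.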

How the data were processed

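Gene expression was measured on 6 Agilent SurePrint G3 Mouse arrays, 3 per population, all on the same slide and in the same scan, so neither could be tested as a batch. The deposited intensity values are the scanner software's processed signals on the linear scale, with background subtracted by the authors' run of Agilent Feature Extraction (version 11.0.1.1 in the file headers and 10.7.3.1 in the submitters' processing notes) and without scaling between arrays. The deposited table of the whole series holds the same intensities rounded, and was used as an alternative.

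Here the log2 signal minus the 75th percentile of each array was used, outlier spots (123 to 154 per array) were left out and no spot was saturated. The spots of each probe were then averaged, and it was tested if well above background on all 3 arrays of a population. Populations were compared across all 37005 such probes with limma 3.58.1 in R 4.3.3 (two-sided, no further terms, Benjamini-Hochberg adjustment), after a check on simulated data. With 3 against 3 arrays no exact permutation p can go below 0.1, so none is given. The limma p values and intervals set each difference against the spread between these samples, drawn toward the spread typical of all tested probes. The number of arrays limits precision. Each gene was counted by its brightest tested probe. Every probe of the members is given, but most other probes of the wider lists are not, also where they disagree. Symbols came from the array design, and 26582 of 55681 probes matched RefSeq (GRCm38.p6, names only). No annotation of mm9 was at hand, so exons were not assigned.

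The members and the gene lists were chosen with earlier results of these data known. The genes named are all members, list genes past an unadjusted p of 0.05 or not well above background on any array (a few are not reported here), the sort and reporter genes, and the 3 names nearest to each member by Pearson correlation. Samples of the same replicate number deviated together from their population means (r = 0.43, 0.28 and 0.67 for numbers 1, 2 and 3 of the labels). The 6 pairs of different number had r from -0.55 to 0.22, so number 2 stood little apart from the highest of them. The reported fit, without a replicate term, was therefore also run with the number as a block. Alternatives were normexp background correction (offset 50), quantile and median scaling, the rounded table, 3 other filters and the methods' t-test. An intensity trend, the replicate block, gene means over probes and each array left out were further ones. Chosen after seeing the data, probes with 6 or more CTG copies were left out. So were probes that shared a stretch with 5 or more probes of other names.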

Additional observations from a re-analysis of the deposited data

How the results depend on the processing

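The count of 0 members at an unadjusted p under 0.05 held under every alternative run, the methods' t-test and the replicate block included. The count over all probes was 5480 with the replicate block against 2925 without, and 2077 to 4048 with an array left out. The wider leukocyte count of 2 was 1 with probes above background on at least 1 array, 1 by the methods' t-test, 3 with the replicate block, and 1 to 5 with an array left out. The replicate block changed no member's call.

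Signs of the members' differences, none of them past the threshold, were less steady: of 159 recomputed values 15 had the other sign. Scaling to the median gave 0.0147 for Ptprc and 0.00352 for Cd3e. Quantile normalization gave -0.0149 for the brightest Csf1r probe and 0.00994 for A_52_P602091. With an array left out, the differences ran from -0.32 to 0.48 for Cd68, from -0.0117 to 0.116 for the brightest Csf1r probe, from -0.29 to 0.11 for A_55_P2025078, from -0.36 to 0.17 for A_52_P602091, from -0.17 to 0.41 for Cd74 and from -0.240 to 0.0466 for Cd3e. The cause was not tested. The median over the members ran from -0.15 to 0.01 with an array left out and was 0.01 with median scaling. Low signal over background limits what can be said of Lyz2 and the second Emr1 probe.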
